A study of Mus musculus with 90 samples.

Results

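The genes described are 6 enzymes of fatty acid desaturation and elongation in mouse liver, measured by RNA-seq in 54 libraries: the desaturases Fads1, Fads2 and Fads6 and the elongases Elovl2, Elovl5 and Elovl3. They were taken by symbol from a table of 24312 gene symbols, 1 RefSeq transcript per symbol, the one with the highest mean RPKM (reads per kilobase of transcript, scaled to the mapped reads of the library). All 6 were present and all 6 passed the filter of a mean of 0.5 RPKM in each of the 5 experiments. RPKM is scaled for transcript length, so levels may be compared between genes within an experiment.

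Dietary linoleic and alpha-linolenic acid are turned into long-chain polyunsaturated fatty acids in the liver by alternating desaturation and elongation at the endoplasmic reticulum. Fads2 and Fads1 are the delta-6 and delta-5 desaturases of that route, Elovl5 elongates the shorter polyunsaturated chains, and Elovl2 elongates the longer ones on the way to docosahexaenoic acid. Elovl3 is better known for elongating saturated and monounsaturated chains, and the substrate of Fads6 is not well established, so the name of the group describes 4 of its 6 members.

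The study asked how food intake controls liver transcription around the onset of the dark phase in mice on night-restricted feeding (NRF), and each library was the liver of 1 mouse. In the first experiment 10-week-old wild-type C57BL/6N mice were taken before the meal at ZT10, or at ZT14 either kept from food (ZT14-unfed) or given food from ZT12 on (ZT14-fed), with 2 mice per group and RNA depleted of ribosomal RNA. All other experiments used poly(A) RNA and livers taken at ZT14. In the second, 10-week-old wild-type C57BL/6N mice were injected shortly before ZT12, 4 per group: unfed and fed mice with vehicle (PBS), and fed mice with the synthetic glucocorticoid dexamethasone (dex, 1 mg/kg), with the insulin receptor antagonist S961, or with both. In the third, unfed Nr3c1 fl/fl mice on a C57BL/6N background had received an adeno-associated virus carrying GFP or Cre under the liver-specific Tbg promoter, 4 per group; Nr3c1 encodes the glucocorticoid receptor (GR), and the Cre mice are called L-GRKO. In the fourth, fed 10-week-old Irs1 fl/fl, Irs2 fl/fl mice on a C57BL/6J background were compared without and with Alb-Cre, 4 per group; Alb-Cre deletes both insulin receptor substrates in hepatocytes (L-IRSdKO), and both genotypes had received dex at 1 mg/kg before food. In the fifth, wild-type C57BL/6 mice kept for 10 weeks on chow (lean) or from 5 weeks of age on a high-fat diet (HFD, obese) were then put on NRF and taken unfed or fed, 3 per group. The substrains are those of the methods; the labels give C57BL/6 throughout. Several comparisons use the same control mice: those of the first experiment share ZT10, ZT14-unfed or ZT14-fed mice, and those of the second and of the fifth share groups in the same way.

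The targets checked the labels as follows. Nr3c1 was 12.8 to 16.2 RPKM in the 4 AAV-GFP livers and 3.93 to 5.35 RPKM in the 4 L-GRKO livers. Irs1 was 2.21 to 4.73 RPKM in Irs fl/fl livers and 0.149 to 0.321 RPKM in L-IRSdKO livers. Irs2 ranges overlapped, at 0.614 to 5.61 and 0.272 to 1.00 RPKM, and limma gave an adjusted p of 0.308. Whether the reads on a target lie inside the deleted exons cannot be read from gene-level values. All 6 hepatocyte markers were above 0 in every library. The 8 libraries of the L-IRSdKO experiment stood apart from the other 46: Alb was 650 to 914 RPKM in them and 18853 to 60597 RPKM elsewhere, and the 10 highest symbols held 1.82% to 2.09% of the summed RPKM against 17.7% to 27.6%. Both genotypes of that experiment shared this pattern, so its contrast was fitted within it and its levels were not set against those of other experiments. The deposited table holds no read numbers, and the read totals that the study lists for its libraries were not used here, so the fits did not weight libraries by depth.

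Fads2 had the highest mean of the 6 members in each of the 16 groups, with group means from 105 to 484 RPKM. Its lead over Elovl3 in fed obese livers (224 against 219 RPKM) was smaller than the spread between mice. Group means ran from 64.1 to 198 RPKM for Fads1, from 44.8 to 179 RPKM for Elovl2 and from 34.2 to 155 RPKM for Elovl5. Fads6 had group means from 16.6 to 55.4 RPKM and Elovl3 from 6.15 to 219 RPKM. Levels differed between experiments, so an order of genes holds only within one. In each of the 5 experiments the ratio of the highest to the lowest library was larger for Elovl3 than for any other member. A second RefSeq transcript of Elovl2 carried 0.939 to 0.973 times the value of the one used, so the reading of Elovl2 did not hang on that choice.

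**Figure D1:**
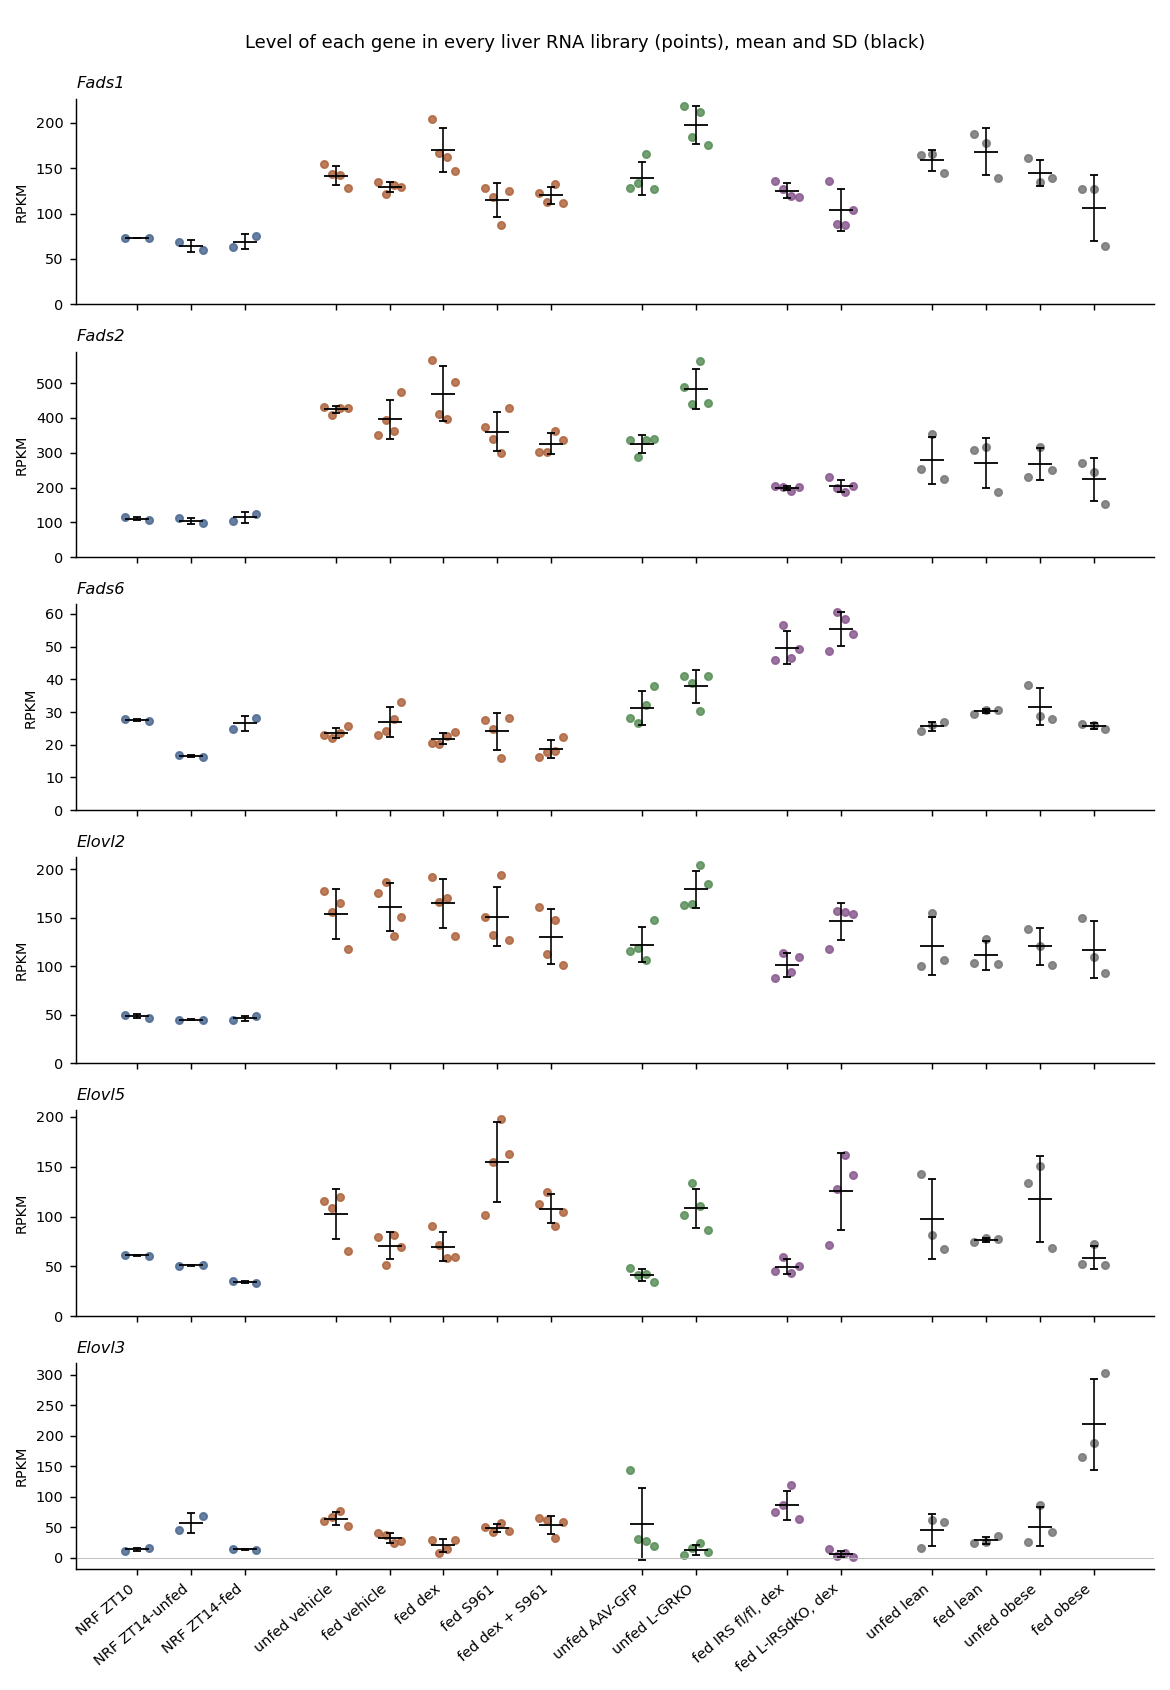
RPKM (y axis, linear, one scale per gene) of the 6 members in every library (points), by group (x axis), with the group mean and SD in black. Elovl3 spans from 1.54 to 303 RPKM, while Fads6 stays between 15.9 and 60.4 RPKM.

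The genes lie on 4 chromosomes of the mm9 build. Fads1 (chr19:10257378-10271360, plus strand) and Fads2 (chr19:10138654-10175993, minus strand) are neighbours that point away from each other, Elovl3 is on the same chromosome (chr19:46206387-46210184, plus strand), and Elovl5 (chr9:77765171-77832326, plus strand), Fads6 (chr11:115140936-115158977, minus strand) and Elovl2 (chr13:41277864-41315774, minus strand) lie elsewhere. Exons of Elovl3 share 10 bases with Pitx3 on the opposite strand. Since the strand of counting is not given in the sources used here, reads over those bases cannot be told apart. Exons of the other 5 members share no bases with another gene.

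Peak lists of GR and FOXO1, a forkhead factor restrained by insulin signalling, and a list of DNase I hypersensitive sites (DHSs, stretches of open chromatin) were available as positions only. GR and FOXO1 peaks came from unfed livers and were concordant between replicates, so they carry no comparison between conditions. All members except Fads6 had GR peaks within 50 kb of their start site: 6 for Fads2, 5 for Elovl2, 4 for Elovl3, and 3 each for Fads1 and Elovl5. The same 5 had FOXO1 peaks: 5 each for Fads1, Fads2 and Elovl2, and 2 each for Elovl5 and Elovl3. Fads6 had neither in that window, although it had 8 DHSs. Among the 19783 genes that could be placed, 33.8% had a GR peak and 35.4% a FOXO1 peak within 50 kb. Those shares were not matched for expression in liver or for open chromatin. The members had from 8 (Fads6) to 15 (Fads2) DHSs within 50 kb, where the median over all placed genes was 6. Because Fads1 and Fads2 are close, some of their peaks are the same: the members had 20 distinct GR peaks and 17 distinct FOXO1 peaks, and 9 of the GR peaks shared bases with a FOXO1 peak. The GR peaks nearest to a start site were those of Fads2, at 1.03 and 2.87 kb upstream and 4.80 kb downstream, and the nearest of Elovl5 was 5.27 kb upstream. A DHS was centred within 0.234 kb of the start site of every member except Elovl2, whose nearest was 1.04 kb inside the gene. At least 1 DHS within 50 kb was found for 88.4% of genes.

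**Figure D2:**
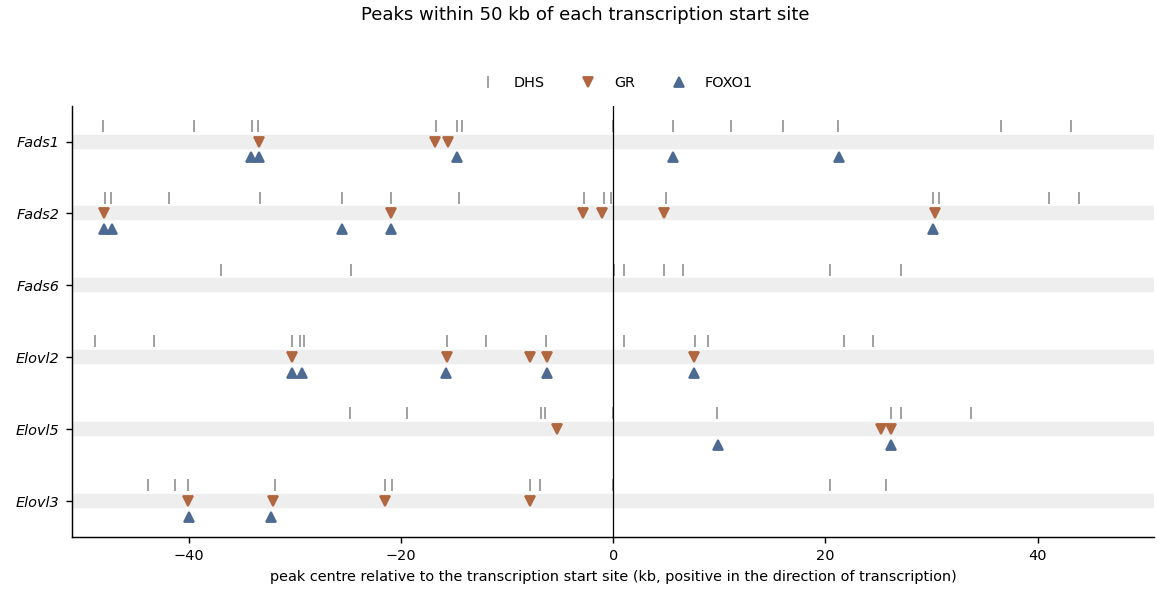
Position of GR peaks, FOXO1 peaks and DHSs relative to the start site of each member (x axis, kb, negative is upstream; 1 row of marks per list). Fads6 has DHSs but no GR or FOXO1 peak within 50 kb, and the GR peak nearest to a start site is 1.03 kb upstream of Fads2.

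The letters of 6 motifs were searched on both strands in every peak and promoter: the GR hexamer TGTTCT, the forkhead motif TGTTTAC, the sterol regulatory element TCACNCCAC, the E-box CACGTG, the nuclear receptor hexamer AGGTCA and the NF-Y box CCAAT. The GR hexamer was present in 27.7% of all 10446 GR peaks and in 5 of the 20 GR peaks of the members. The forkhead motif was present in 7.29% of all GR peaks and in 1 of the 20. The peaks below are shown because they are the GR peaks of Fads2, Elovl2 and Elovl5 that hold the GR hexamer, together with the Elovl5 peak that shares bases with a FOXO1 peak; each is 180 bases of the mm9 plus strand, 5′ to 3′, with motif matches in capitals. A match is a description of the letters and not a measured site.
Fads2 intron, 4.80 kb downstream of the start site, chr19:10171106-10171285: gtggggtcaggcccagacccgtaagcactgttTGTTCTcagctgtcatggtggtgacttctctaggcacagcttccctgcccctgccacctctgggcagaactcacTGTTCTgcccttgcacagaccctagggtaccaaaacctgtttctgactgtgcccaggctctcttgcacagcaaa
Elovl2, 15.7 kb upstream, intergenic, chr13:41331400-41331579: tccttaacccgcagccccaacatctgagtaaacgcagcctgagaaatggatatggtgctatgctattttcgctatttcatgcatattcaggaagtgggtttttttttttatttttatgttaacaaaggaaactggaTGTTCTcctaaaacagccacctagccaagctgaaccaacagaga
Elovl2, 30.3 kb upstream, in an intron of BC024659, chr13:41345952-41346131: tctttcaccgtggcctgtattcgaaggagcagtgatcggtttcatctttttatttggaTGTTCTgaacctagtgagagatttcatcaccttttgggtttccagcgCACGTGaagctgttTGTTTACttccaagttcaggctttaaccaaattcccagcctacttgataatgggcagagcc
Elovl5, 5.27 kb upstream, intergenic, chr9:77759808-77759987: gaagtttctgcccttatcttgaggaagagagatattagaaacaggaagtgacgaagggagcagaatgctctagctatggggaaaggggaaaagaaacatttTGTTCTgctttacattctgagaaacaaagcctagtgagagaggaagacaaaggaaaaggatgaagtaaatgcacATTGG
Elovl5 intron, 25.2 kb downstream, chr9:77790301-77790480: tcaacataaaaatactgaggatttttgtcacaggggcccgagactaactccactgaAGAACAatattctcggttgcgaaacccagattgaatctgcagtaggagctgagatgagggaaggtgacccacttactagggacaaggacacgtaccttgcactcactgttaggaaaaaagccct
Elovl5 intron, 26.2 kb downstream, chr9:77791250-77791429: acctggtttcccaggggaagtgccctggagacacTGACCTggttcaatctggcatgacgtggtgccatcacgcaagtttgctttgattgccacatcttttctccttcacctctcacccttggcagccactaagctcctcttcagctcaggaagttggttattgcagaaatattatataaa

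The Fads2 intronic peak holds the GR hexamer in 2 places. The peak 30.3 kb upstream of Elovl2 holds the GR hexamer, an E-box and the forkhead motif, and it shares bases with both a FOXO1 peak and a DHS. The peak 5.27 kb upstream of Elovl5 holds the GR hexamer and the NF-Y box on the minus strand, and it shares no bases with a DHS or a FOXO1 peak. The peak 25.2 kb into Elovl5 holds the GR hexamer on the minus strand (AGAACA as printed). The one 26.2 kb into Elovl5 holds the nuclear receptor hexamer on the minus strand, a motif present in 24.0% of all GR peaks.

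Promoter sequence of RefSeq (GRCm38.p6, 250 bases upstream of the start, written along the gene's own strand) matched 4 members: Fads2, Fads6, Elovl2 and Elovl5. Those of Elovl5 and Fads6 are shown because they held a searched motif, in capitals.
Elovl5 promoter, chr9:77917115-77917364, plus strand: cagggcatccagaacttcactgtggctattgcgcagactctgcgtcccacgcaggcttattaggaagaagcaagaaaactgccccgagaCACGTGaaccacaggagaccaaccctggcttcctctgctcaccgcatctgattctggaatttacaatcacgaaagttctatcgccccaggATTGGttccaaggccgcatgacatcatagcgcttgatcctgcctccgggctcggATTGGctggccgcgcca
Fads6 promoter, chr11:115297563-115297812, minus strand: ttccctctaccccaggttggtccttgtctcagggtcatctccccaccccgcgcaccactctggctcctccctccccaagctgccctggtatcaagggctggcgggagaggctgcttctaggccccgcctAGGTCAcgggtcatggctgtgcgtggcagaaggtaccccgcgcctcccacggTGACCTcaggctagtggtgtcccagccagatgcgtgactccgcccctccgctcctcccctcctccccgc
The Elovl5 window holds the E-box once, a motif of 6.02% of all 32851 promoter windows, and the NF-Y box on its minus strand in 2 places, a box present in 33.8% of them. The Fads6 window holds the nuclear receptor hexamer once on each strand, a motif of 14% of the windows. None of the 6 motifs was found in the windows of Fads2 or Elovl2.

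Tests of level were made with limma on log2(RPKM + 0.5), with a false discovery rate adjusted over all genes tested. The threshold was 0.01 for the NRF experiment and for the meal in lean and obese mice, and 0.05 elsewhere. Each difference is on that log2 scale, which understates changes of low values. Each comparison is set beside the share of all genes that passed the same threshold. Counts of members at an unadjusted limma p under 0.05 have no such share beside them, and many genes reach that level. Nor was the share of all genes whose groups do not overlap counted.

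Elovl3 differed between ZT10 and ZT14-unfed livers, a comparison called time of day here. These mice also differ in the length of their fast, and the 2 cannot be told apart. Its level was 11.8 and 15.5 RPKM at ZT10, 46.0 and 68.7 RPKM at ZT14-unfed, and 14.7 and 12.7 RPKM at ZT14-fed. Both unfed ZT14 livers were therefore above all 4 others. From ZT10 to ZT14-unfed Elovl3 rose by 2.02 ± 0.21 (SE, 4.04-fold, limma adjusted p = 0.0055), and it was the 1 member of 6 called, where 1.16% of all genes were called. After the meal it fell by 2.00 ± 0.21 (adjusted p = 0.0049), again as the only member called, against 0.99% of genes. The ZT10 and ZT14-fed livers did not separate for this gene (0.02 on the log2 scale). The time of day call was lost without ZT10 replicate 1 or 2 (adjusted p = 0.037 and 0.031), and the meal call without ZT14-fed replicate 1 or 2 (adjusted p = 0.038 and 0.065). Both were also lost with no filter on low values (adjusted p = 0.043 and 0.045) and under quantile normalization (0.012 and 0.011).

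Elovl5, the elongase of the shorter polyunsaturated chains, was lower in fed livers at ZT14 than in livers at ZT10. It was 61.3 and 60.8 RPKM at ZT10, 50.3 and 51.6 RPKM at ZT14-unfed, and 34.9 and 33.6 RPKM at ZT14-fed, so the groups did not overlap. From ZT10 to ZT14-fed Elovl5 fell by 0.83 ± 0.083 (adjusted p = 0.0033), the 1 member called where 1.71% of genes were. The single steps did not pass 0.01: the time of day difference was -0.26 (adjusted p = 0.099) and the meal difference -0.57 (adjusted p = 0.014). The call was lost with no filter (adjusted p = 0.011) and in each of the 4 fits without a ZT10 or a ZT14-fed library (adjusted p = 0.019 to 0.053).

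Fads6 gave 27.8 and 27.4 RPKM at ZT10, 16.8 and 16.4 RPKM at ZT14-unfed, and 24.8 and 28.2 RPKM at ZT14-fed. Both ZT14-unfed livers were below the 4 others, but neither difference passed 0.01 (time of day -0.72, limma adjusted p = 0.0104; meal 0.66, adjusted p = 0.0147). Fads1, Fads2 and Elovl2 differed little in these mice. Fads1 was between 59.7 and 75.0 RPKM in all 6 livers, Fads2 between 99.3 and 125 RPKM, and Elovl2 between 44.5 and 49.7 RPKM, with adjusted p of at least 0.34. In bulk liver, fewer cells of a type and less RNA per cell cannot be told apart.

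In vehicle-injected mice the meal left no member past 0.05, where 3.13% of genes passed, and 2 members had an unadjusted limma p under 0.05. Elovl3 was 60.0, 67.1, 77.5 and 52.4 RPKM in unfed and 41.4, 36.7, 24.2 and 26.8 RPKM in fed livers. Every fed liver was below every unfed one, with a difference of -1.0 ± 0.32 (adjusted p = 0.089). Elovl5 was 116, 109, 120 and 65.6 RPKM unfed and 79.1, 51.7, 81.8 and 69.9 RPKM fed. These groups overlapped through the fourth unfed mouse, and the difference was -0.52 ± 0.22 (adjusted p = 0.19). In these comparisons 2 of 5 Kupffer cell markers were called higher after the meal, with sums of 45.1 to 58.7 RPKM unfed and 62.6 to 98.5 RPKM fed, and their part in the levels of the members was not tested.

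Dex in fed mice also called no member, against 3.19% of genes, with 2 at an unadjusted limma p under 0.05. Fads1, the delta-5 desaturase, was 135, 121, 131 and 130 RPKM with vehicle and 204, 167, 162 and 147 RPKM with dex. All 4 dex livers were higher than all 4 vehicle livers, and the difference was 0.39 ± 0.12 (adjusted p = 0.083). It passed the threshold with a term for the library series (adjusted p = 0.039) and under median-ratio scaling (adjusted p = 0.034). Library codes placed replicate 4 of all 5 injected groups in another series than replicates 1 to 3. Fads6 of replicate 4 was above that of replicates 1 to 3 in 5 of 5 groups, and Elovl2 was below in 4 of 5. The part of the series in these levels was not tested beyond the fit with that term. Fads2 was 350, 395, 363 and 474 RPKM with vehicle and 567, 413, 397 and 502 RPKM with dex, with overlap (0.24, adjusted p = 0.33). Elovl3 was 29.5, 7.88, 15.1 and 29.2 RPKM with dex, overlapping its vehicle levels (-0.79 ± 0.32, adjusted p = 0.18). Of 5 Kupffer cell and 5 endothelial markers, 1 and 2 were called lower with dex, and their part was not tested.

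S961 in fed mice raised Elovl5 alone of the 6, where 1.9% of all genes were called. Elovl5 was 79.1, 51.7, 81.8 and 69.9 RPKM with vehicle and 102, 155, 198 and 163 RPKM with S961. The groups did not overlap, and Elovl5 rose by 1.11 ± 0.22 (2.15-fold, limma adjusted p = 0.0104). The call was lost when the compared groups were fitted alone (adjusted p = 0.097). Elovl2, the elongase of the longer chains, was 175, 187, 131 and 151 RPKM with vehicle and 151, 133, 194 and 127 RPKM with S961, with wide overlap (-0.10, 95% interval -0.47 to 0.27). Fads1 (-0.19), Fads2 (-0.14) and Fads6 (-0.18) did not pass the test (adjusted p from 0.53 to 0.72). Elovl3 differed by 0.59 (adjusted p = 0.42), with every S961 liver (42.4 to 56.7 RPKM) above every vehicle liver (24.2 to 41.4 RPKM). Kupffer cell markers were called lower in 2 of 5 with S961 and in 3 of 5 with S961 and dex, with sums of 42.7 to 64.5 and 50.8 to 59.8 RPKM against 62.6 to 98.5 RPKM with vehicle, and their part was not tested.

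With dex and S961 together 10.6% of all genes were called against fed vehicle mice, and 1 member was. Fads6 fell by 0.52 ± 0.15 (adjusted p = 0.038), from 22.9, 24.2, 27.9 and 33.1 RPKM to 16.2, 17.9, 18.2 and 22.4 RPKM. The groups did not overlap, but the call did not hold under median-ratio scaling (-0.35, adjusted p = 0.22), which shifted the median of all genes by 0.15 in this comparison. It was lost in 6 of 8 fits that left out 1 library, with adjusted p up to 0.104, and with no filter, under quantile normalization and with the compared groups alone (adjusted p = 0.054, 0.093 and 0.058). Elovl5 was 113, 125, 90.8 and 104 RPKM with both agents, above all 4 fed vehicle livers, at 0.62 ± 0.22 (adjusted p = 0.072; 0.043 with the library series term and 0.037 under median-ratio scaling). Against unfed vehicle mice no member of the fed mice with both agents was called (2.32% of all genes; 2 members at an unadjusted limma p under 0.05). The intervals were wide: -0.35 to 0.56 for Elovl5 and -0.93 to 0.39 for Elovl3.

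Adding S961 on top of dex called 3 of the 6 members, where 2.96% of genes were called. Fads1 was 204, 167, 162 and 147 RPKM with dex and 122, 113, 133 and 112 RPKM with both agents. It fell by 0.49 ± 0.12 (limma adjusted p = 0.027), without overlap of the groups. Fads2 fell by 0.51 ± 0.13 (adjusted p = 0.035), from 567, 413, 397 and 502 RPKM to 303, 302, 363 and 337 RPKM, also without overlap. Elovl3 rose by 1.52 ± 0.32 (2.88-fold, adjusted p = 0.0102), from 29.5, 7.88, 15.1 and 29.2 RPKM to 64.7, 62.3, 32.8 and 58.1 RPKM. Both desaturase calls were lost under median-ratio scaling (adjusted p = 0.055 and 0.075) and in 6 of 8 (Fads1) and 5 of 8 (Fads2) fits that left out 1 library, with adjusted p up to 0.13. The Elovl3 call was not lost in any of those 8 fits. All 3 calls were lost when the compared groups were fitted alone (adjusted p = 0.071 for Fads1, 0.097 for Fads2 and 0.099 for Elovl3), and that of Fads2 with no filter (0.055). Dex on top of S961 called no member (1.91% of all genes; 2 members at an unadjusted limma p under 0.05). No member, and 0% of all genes, passed the test of the interaction of dex and S961, and no member reached an unadjusted limma p under 0.05 in it.

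**Figure D3:**
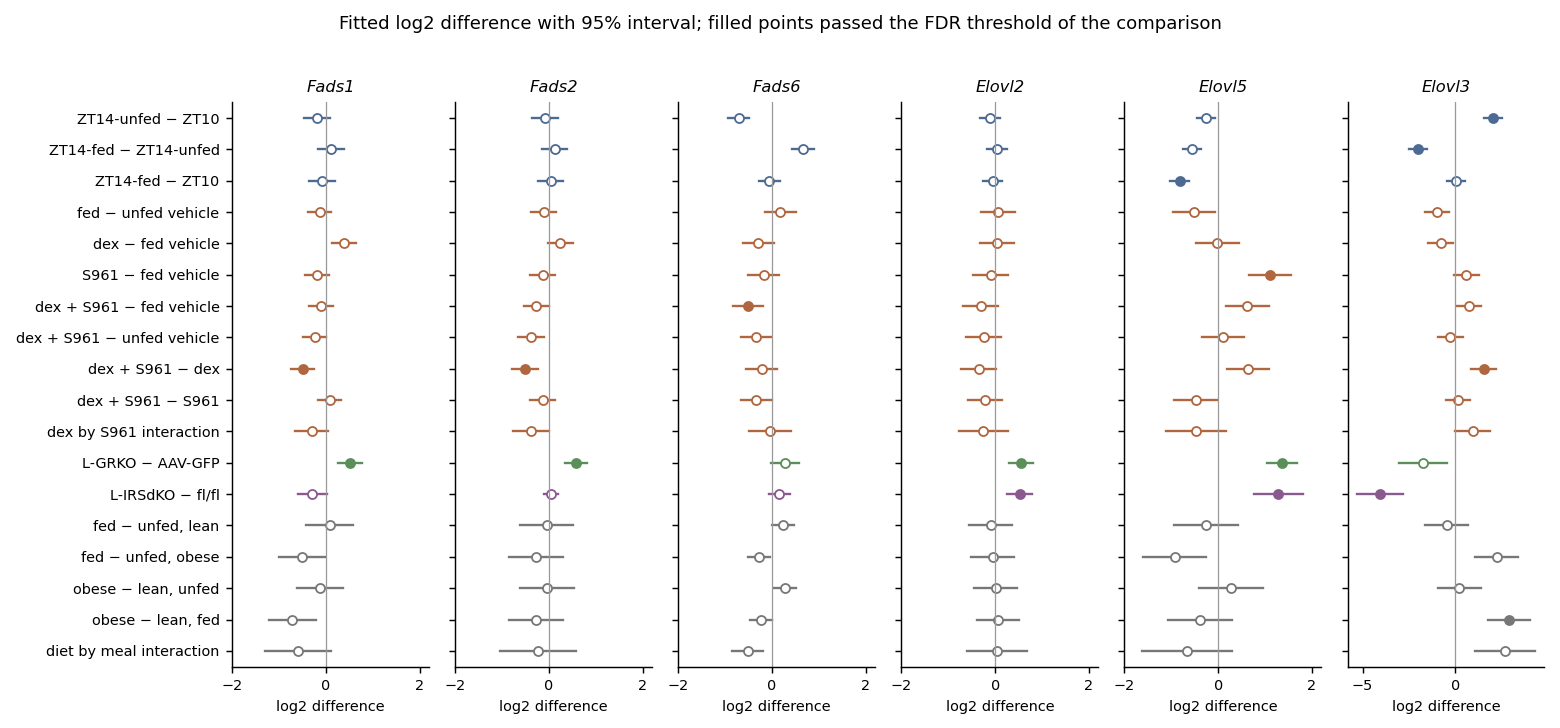
Difference of each member in each comparison (x axis, log2(RPKM + 0.5) units, with the 95% interval of the limma fit; Elovl3 has a wider axis); filled points passed the threshold of the comparison. Elovl5 is higher with S961, in L-GRKO and in L-IRSdKO livers, and Elovl3 reaches -4.08 in L-IRSdKO livers.

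Loss of hepatic GR in unfed mice moved 4 of the 6 members upward and none downward, where 6.68% of all genes were called. Elovl5 was 48.8, 40.9, 42.8 and 34.0 RPKM in AAV-GFP livers and 102, 134, 111 and 86.6 RPKM in L-GRKO livers. The groups were far apart, and Elovl5 rose by 1.36 ± 0.14 (2.57-fold, limma adjusted p = 0.00051), a call that held in all 8 fits without 1 library. Elovl2 was 115, 119, 107 and 148 RPKM in AAV-GFP and 163, 164, 204 and 185 RPKM in L-GRKO livers, and rose by 0.55 ± 0.12 (1.47-fold, adjusted p = 0.021).

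Both desaturases of the polyunsaturated route rose with them in L-GRKO livers. Fads2 went from 336, 287, 336 and 340 RPKM to 490, 440, 563 and 444 RPKM, a difference of 0.57 ± 0.11 (1.49-fold, limma adjusted p = 0.011). Fads1 went from 128, 134, 166 and 127 RPKM to 219, 184, 212 and 175 RPKM, a difference of 0.51 ± 0.11 (1.42-fold, adjusted p = 0.025). The values of Elovl2, Fads2 and Fads1 did not overlap between the genotypes, and the share of all genes without overlap was not counted. The Fads2 call held without any 1 library, the Elovl2 call was lost in 3 of those 8 fits (adjusted p up to 0.061) and the Fads1 call in 6 of 8 (adjusted p up to 0.077). Median-ratio scaling also ended the Fads1 call (0.41, adjusted p = 0.11), quantile normalization the Elovl2 call (0.051), and leaving out the filter both (0.057 and 0.051).

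Fads6 was 28.2, 26.5, 32.1 and 38.1 RPKM in AAV-GFP and 41.0, 39.0, 30.4 and 41.1 RPKM in L-GRKO livers, with overlap (0.28, adjusted p = 0.29). Elovl3 was 144, 31.1, 28.3 and 19.8 RPKM in AAV-GFP and 5.41, 15.6, 24.2 and 8.82 RPKM in L-GRKO livers. The groups overlapped, 1 control liver lay far above its group, and the difference of -1.73 ± 0.58 was not called (adjusted p = 0.11). Without that control it was -1.12 (adjusted p = 0.16). Red blood cell markers moved with the genotype: 4 of 4 were called higher, with sums of 307 to 401 RPKM in AAV-GFP and 454 to 893 RPKM in L-GRKO livers. Among 5 stellate cell markers 1 was called higher (sums of 37.4 to 58.3 against 53.9 to 80.0 RPKM), none of 5 Kupffer cell or 5 endothelial markers was, and 1 of 6 hepatocyte markers was called lower. Their part in the result was not tested.

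In L-IRSdKO livers 3 of the 6 members were called, where 17.4% of all genes were. Elovl3 was 75.2, 86.2, 119 and 63.1 RPKM in Irs fl/fl controls and 13.7, 2.27, 7.12 and 1.54 RPKM in L-IRSdKO livers. The groups did not overlap, and Elovl3 fell by 4.08 ± 0.55 (limma adjusted p = 0.0038), the largest difference of any member in any comparison. Elovl5 rose by 1.28 ± 0.23 (2.42-fold, adjusted p = 0.0092), from 45.3, 59.7, 43.0 and 50.3 RPKM to 71.4, 127, 161 and 141 RPKM. Elovl2 rose by 0.53 ± 0.12 (1.44-fold, adjusted p = 0.019), from 88.2, 114, 93.9 and 110 RPKM to 118, 157, 156 and 154 RPKM. Neither elongase overlapped between genotypes, again without a count of all genes that do not.

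L-IRSdKO replicate 1 lay nearest to the controls in Elovl2, Elovl3, Elovl5 and Fads1. Its Irs1 level, 0.149 RPKM, was the lowest of the 4, and its Srebf1 level, 18.1 RPKM, was above the other 3 (6.90 to 8.59 RPKM). Without it Elovl3 differed by -4.58, Elovl5 by 1.53 and Elovl2 by 0.63 (adjusted p = 0.00023, 0.00014 and 0.0023). Fads1, which was 136, 127, 120 and 118 RPKM in controls and 136, 88.7, 87.3 and 104 RPKM in L-IRSdKO livers, was not called with all 8 libraries (-0.29 ± 0.13, adjusted p = 0.17) and was called without that replicate (-0.43, adjusted p = 0.0072). The Elovl2 call was lost when any of the other 3 L-IRSdKO libraries was left out (adjusted p = 0.056 to 0.059). Fads2 stayed between 187 and 229 RPKM in all 8 livers (0.04, 95% interval -0.12 to 0.19), and Fads6 overlapped (0.16, adjusted p = 0.29).

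Markers of other cells also differed between the Irs genotypes. Summed stellate cell markers were 101 to 118 RPKM in controls and 121 to 146 RPKM in L-IRSdKO livers, without overlap, with 2 of 5 called higher. Among endothelial markers 3 of 5 were called higher (sums of 97.3 to 125 against 107 to 148 RPKM), as was 1 of 5 Kupffer cell markers (141 to 262 against 248 to 318 RPKM). Among hepatocyte markers 2 of 6 were called lower (2392 to 2696 against 2131 to 2554 RPKM), as were 1 of 3 cholangiocyte markers and 1 of 4 red blood cell markers. Their part in the differences of the members was not tested.

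The meal in lean mice called no member, although 10.2% of all genes were called, and none had an unadjusted limma p under 0.05. Elovl3 was 16.1, 61.8 and 59.2 RPKM in unfed and 24.1, 26.1 and 35.1 RPKM in fed lean livers, with overlap through 1 unfed mouse. In obese mice no member passed 0.01 (1.22% of all genes), and 4 had an unadjusted limma p under 0.05. Elovl3 was 25.2, 86.8 and 41.6 RPKM in unfed and 165, 188 and 303 RPKM in fed obese livers. Every fed obese liver was above every unfed one, with a difference of 2.22 ± 0.52 (4.64-fold, adjusted p = 0.029), short of the 0.01 used for this comparison. Elovl5 was 134, 150 and 68.2 RPKM unfed and 52.1, 72.7 and 51.8 RPKM fed in the obese mice, with overlap (-0.93 ± 0.31, adjusted p = 0.089).

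Between obese and lean unfed mice no member was called (5.22% of all genes; 1 member at an unadjusted limma p under 0.05). Between obese and lean fed mice Elovl3 was the 1 member called, where 0.499% of all genes were. It was higher by 2.89 ± 0.52 (7.40-fold, adjusted p = 0.047), and the 3 fed obese livers were all above the 3 fed lean ones. Summed hepatocyte markers were 44223 to 47057 RPKM in fed obese and 54482 to 58211 RPKM in fed lean livers, with none of the 6 called, and their part was not tested. The call was lost in each of the 6 fits without 1 library, with adjusted p from 0.12 to 0.14 and differences from 2.63 to 3.07, and also with no filter (adjusted p = 0.10), with a pseudocount of 0.1 (0.051) and without the variance trend (0.055). Fads1 was 188, 178 and 139 RPKM in fed lean and 128, 127 and 64.5 RPKM in fed obese livers, without overlap (-0.72 ± 0.23, adjusted p = 0.13). The test of the diet by meal difference called no member, against 0.743% of genes, with 2 at an unadjusted limma p under 0.05. For Elovl3 that difference was 2.68 ± 0.74 (adjusted p = 0.13), and it was called without unfed lean replicate 1 (3.31, adjusted p = 0.039).

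Elovl3 is also a gene of fat cells, so adipocyte markers were read beside it. Adipoq was at most 0.577 RPKM in any library and listed at 0 in 35 of 54, and Plin1 was at most 0.147 RPKM and listed at 0 in 40. The 5 adipocyte markers summed to 0.136, 0.076 and 5.37 RPKM in the 3 fed obese livers, where Elovl3 was 165, 188 and 303 RPKM. The highest sum, 27.6 RPKM and nearly all Cfd, was in an unfed obese liver with 86.8 RPKM of Elovl3. Adipoq was at or near 0 in the fed obese livers (0.052, 0 and 0 RPKM). The sum of 5.37 RPKM, in the liver with 303 RPKM of Elovl3, was all Cfd. The part of fat cells in the levels of Elovl3 was not tested.

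Ratios within a library, taken here after adding 0.5 RPKM to both levels, hardly depend on the scaling of that library. The log2 ratio of Elovl5 to Elovl2, the 2 elongases of polyunsaturated chains, was -1.19 ± 0.48 (SD, n = 4) in fed vehicle livers and 0.01 ± 0.41 with S961. The difference of 1.20 had no overlap of the groups. It was 0.99 for S961 on top of dex, 0.81 in L-GRKO livers and 0.75 in L-IRSdKO livers, each with groups that did not overlap. Each of these 4 gave a two-sided exact permutation p of 0.029, the smallest that 4 against 4 can give, and 0.11 after Benjamini-Hochberg adjustment over the 16 comparisons of groups. With S961 the 2 elongases were thus at about equal RPKM on average, with log2 ratios from -0.57 to 0.36 in single livers. In the NRF livers the ratio averaged 0.34 at ZT10 and 0.18 in unfed livers at ZT14, and in fed livers it was -0.43, where 2 against 2 cannot go below an exact p of 0.33. The other meals differed by -0.58 in vehicle-injected mice (exact p = 0.057), by -0.17 in lean mice (exact p = 0.90) and by -0.87 in obese mice, where the groups did not overlap (exact p = 0.10, the smallest for 3 against 3). The injected and lean groups overlapped. No ratio passed the adjustment.

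The log2 ratio of Fads1 to Fads2, consecutive desaturases of the same route, moved less. In injected mice its group means lay between -1.65 and -1.44, and in L-GRKO and AAV-GFP livers they were -1.29 ± 0.11 and -1.23 ± 0.20 (SD, n = 4). Between those genotypes the ratio differed by -0.06 (exact permutation p = 0.60). The largest difference was between fed obese and fed lean livers, -0.44 with no overlap (exact p = 0.10, the smallest for 3 against 3; adjusted 0.53). In L-IRSdKO livers the difference was -0.33 (exact p = 0.057, adjusted 0.53).

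**Figure D4:**
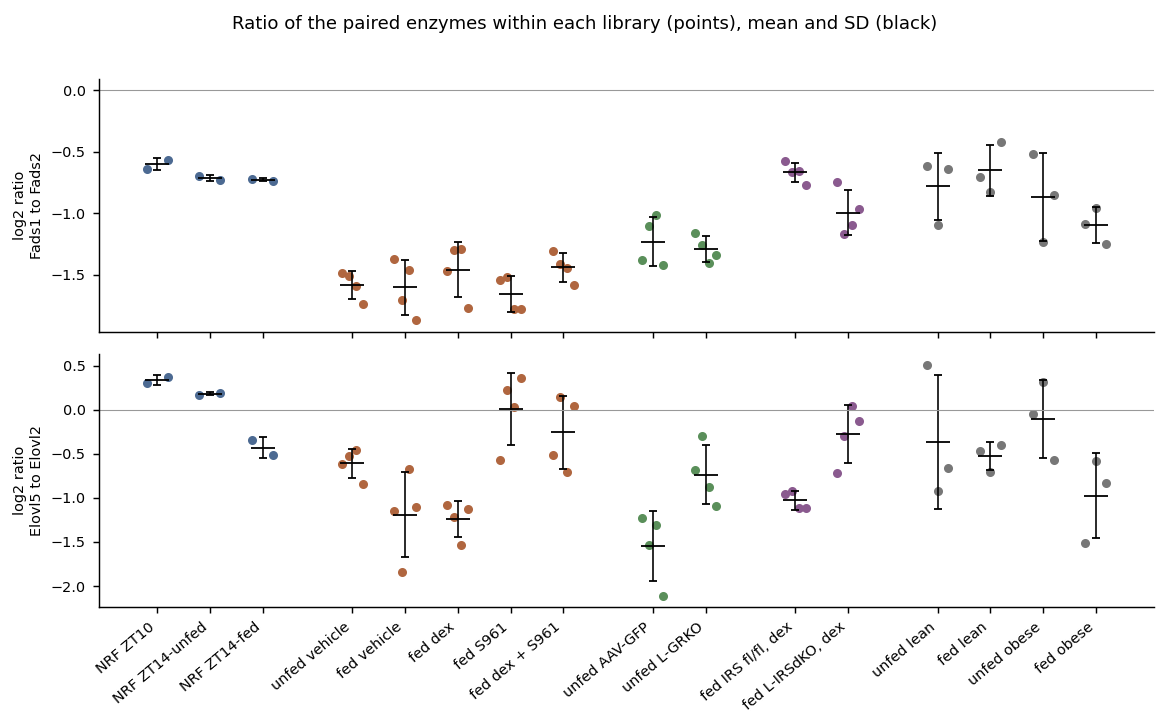
Log2 ratio of Fads1 to Fads2 (upper) and of Elovl5 to Elovl2 (lower) within each library (points; y axis, log2 units, 0 is equal RPKM), by group (x axis), with mean and SD in black. The lower ratio is -1.19 in fed vehicle livers and 0.01 with S961, and the groups do not overlap.

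The other genes of the pathway were read from a list of 42, of which 38 were tested in each experiment and 40 in the L-IRSdKO one. In L-GRKO livers, where 6.68% of all genes were called, 519 higher and 259 lower, 9 of 38 rose and none fell, with a median absolute difference of 0.30 beside 0.15 for all genes and 0.56 for the 6 members. They were Elovl6 (1.17), which elongates saturated chains, Fads3 (0.91), Abcd2 (2.19), which carries very long acyl-CoA into peroxisomes, Acaa1b (1.46), a peroxisomal thiolase, the acyl-CoA synthetases Acsl3 (0.96) and Acsl5 (0.42), Cyb5b (0.65), Lpcat3 (0.59), which puts polyunsaturated chains into phospholipid, and Srebf1 (0.80), the gene of the lipogenic factor SREBP1. The limma adjusted p ranged from 0.00075 to 0.045.

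In L-IRSdKO livers 4 of the 40 rose and 9 fell, where 17.4% of all genes were called, 1175 higher and 1078 lower. Abcd2 (1.93), Elovl6 (0.78), Acsl4 (0.74) and Agpat3 (0.25) rose. Of the remaining enzymes of the elongation cycle, Hsd17b12, the ketoacyl reductase, fell by 0.77 and Tecr, the enoyl reductase, by 0.31, while Elovl1 fell by 0.55. Cyb5b and Cyb5r3, listed here under electron supply, fell by 0.55 and 0.34. Among the regulators Srebf1 fell by 1.82, Insig1 by 1.05 and Mlxipl by 0.50.

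Srebf1 was the listed gene called most often. The meal raised it by 2.65 in NRF mice, by 1.27 in vehicle-injected mice and by 2.60 in lean mice. With S961 it fell by 1.84 in fed mice, and on top of dex it fell by 1.88. Under S961 alone 3 of 38 listed genes rose, among them Acsl1 (0.65) and Lpcat3 (0.48), and 3 fell, namely Srebf1, Insig1 (-1.26) and Scd2 (-0.58). With dex and S961 together, where 10.6% of all genes were called, 304 higher and 889 lower, 3 listed genes rose and 6 fell, with Elovl1 down by 0.82 and Srebf1 by 2.42. Fed obese livers differed from fed lean ones by -4.92 in Scd1, the stearoyl-CoA desaturase, by -1.05 in Elovl1 and by 1.61 in Mfsd2a, and the diet by meal difference was called for Elovl1 (-1.11), Srebf1 (-2.33) and Mfsd2a (3.16), which transports lysophospholipid that carries docosahexaenoic acid. Dex alone raised Mfsd2a (1.15), the 1 listed gene called in that comparison.

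After the mean of each experiment was removed, the levels of Fads1 and Fads2 ran together most closely among the members (Pearson r = 0.75 over 54 libraries). Elovl5 had r = 0.40 with Elovl2, 0.02 with Fads1 and -0.38 with Elovl3. Every member had a negative r with Elovl3, from -0.29 (Fads2) to -0.45 (Fads6). Outside the members, among 10521 genes, the pattern most like Elovl5 was that of Pank1 (r = 0.86), a pantothenate kinase of coenzyme A synthesis, then Bckdhb (0.79). Pemt, which methylates phosphatidylethanolamine to phosphatidylcholine, had r = 0.70 with Fads1, and the closest to Fads2 were Cul7 and Mbl2 (both 0.59). Fads6 was closest to Krt18 (0.79) and Ehmt2 (0.77), and Elovl2 to Mpp6 (0.78) and Phip (0.74). Elovl3 was closest to Pitx3 (0.89), which averaged 0.84 RPKM and shares exonic bases with it, and then to Cyp2a12 (0.78). The points share libraries, depth and experiment, so these values are descriptions. In the 46 libraries outside the L-IRSdKO experiment the values of genes outside the members lay between 0.62 and 0.88, with Cyp2a12 at 0.64. Among the members Fads1 and Fads2 had 0.77 there, and Elovl5 had 0.23 with Elovl2, 0.19 with Fads1 and -0.12 with Elovl3. The remaining members had from -0.24 (Elovl2) to -0.66 (Fads1) with Elovl3 in those libraries.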

How the data were processed

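RNA-seq of single mouse livers was analysed in 54 libraries of 5 experiments, grouped by their GEO labels. The authors aligned reads to mm9 with STAR and deposited RPKM values per RefSeq transcript; DESeq2 and HOMER are also named in the submitters' notes, versions not given. The counting tool and its use of strand are not given in the sources used here. Peak positions were deposited without heights; the authors called GR and FOXO1 peaks with HOMER. H3K27ac signal was not analysed here. RPKM holds no read numbers, so no count test or depth interval was made.

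Each symbol was represented by its transcript of highest mean RPKM. A separate model was made for every experiment (limma 3.58.1, R 4.3.3). Genes averaging 0.5 RPKM or more over its libraries entered it as log2(RPKM + 0.5), the variance was allowed to follow the mean, and Benjamini-Hochberg adjustment covered all these genes. Where the number of values was small, two-sided exact permutation tests were made with SciPy 1.17.1. The groups are of separate mice. Named genes are the 6 members, the pathway genes called and the 2 genes most correlated with each member; a few of these are not reported here. The members, lists and tests were chosen with earlier results of these data known. The fits were also run on simulated data with noise drawn independently for each library. That run cannot speak for libraries that deviate together. Alternatives were other pseudocounts, filters, scalings, thresholds, a replicate block, a library series term and leaving out each library; the closing section gives their effect.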

Additional observations from a re-analysis of the deposited data

Results flagged for a closer look

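Of 54 sets of 4 libraries, 1 member in 1 group each, 4 held a library whose gap to its nearest neighbour was large for the range of its group; chance flags about 1 in 20 groups. Elovl3 was 143.9 RPKM in AAV-GFP replicate 1, where the other 3 controls were 19.8 to 31.1 RPKM. Elovl2 was 118.0 RPKM in L-IRSdKO replicate 1, where the other 3 were 154 to 157 RPKM. Fads2 was 287.3 RPKM in AAV-GFP replicate 2, where the others were 336 to 340 RPKM. Fads2 was 189.6 RPKM in Irs fl/fl replicate 3, where the others were 202 to 204 RPKM. Groups of 2 or 3 mice were not examined in this way.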

How the results depend on the processing

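No member reversed its direction in a called result under any alternative run. Differences in the log2 ratios of Fads1 to Fads2 or of Elovl5 to Elovl2 gave 96 alternative values. None passed the adjusted threshold, which group sizes this small could not reach. Leaving out 1 library cannot move these differences by more than the larger SD of the groups compared. The 216 fits compared with that SD could therefore not fail, and they say nothing on stability. Counts of members called moved as follows, and the cause was not tested. For time of day (1 called), the count was 2 with a pseudocount of 0.1, a filter of 2 RPKM, all RefSeq IDs or a threshold of 0.05, and 0 with no filter, quantile normalization, the replicate block or the compared groups alone. For the NRF meal (1), it was 3 with a filter of 2 RPKM or a threshold of 0.05, 2 with median-ratio scaling, and 0 with no filter, quantile normalization or the replicate block. From ZT10 to ZT14-fed (1), it was 0 with no filter or the replicate block. The vehicle meal (0) gave 1 with the compared groups alone, as did dex + S961 against unfed vehicle (0). Dex (0) gave 1 with median-ratio scaling, the replicate block or the library series term. S961 (1) gave 0 at a threshold of 0.01 or with the compared groups alone. Dex + S961 (1) gave 2 with the series term and 0 with no filter, quantile normalization or a threshold of 0.01. S961 on dex (3) gave 2 with no filter, 1 with median-ratio scaling and 0 at a threshold of 0.01 or with the compared groups alone. L-GRKO (4) gave 3 with median-ratio scaling or quantile normalization, 2 with no filter and 1 at 0.01, and L-IRSdKO (3) gave 2 at 0.01. The obese meal (0) gave 1 at 0.05, and the fed obese against lean comparison (1) gave 0 with a pseudocount of 0.1, no filter, no variance trend or a threshold of 0.01. Members with a FOXO1 peak were 5 within 50 kb, 3 within 20 kb and 6 within 100 kb, and those with a GR peak 5 within 50 kb and 6 within 100 kb.

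With 1 library left out the counts ran from 0 to 1 for time of day, the NRF meal, dex, dex + S961, dex on S961 and the diet by meal difference, stayed at 0 for ZT10 to ZT14-fed and for fed obese against lean, were 1 to 1 for S961, and ran from 1 to 3 for S961 on dex and from 2 to 4 for L-GRKO and L-IRSdKO. Fads1 with dex was called without dex replicate 4 (adjusted p = 0.045), and Fads6 with dex on top of S961 without S961 replicate 3 (adjusted p = 0.047). Correlations of same-numbered libraries ran from -0.12 to 0.605 in the injected mice and from -0.201 to 0.215 elsewhere. In the injected mice they averaged 0.213, against -0.064 for differently numbered libraries, so same-numbered libraries there deviated partly together. Replicate 4 was also another library series in every injected group, so these averages do not separate series from replicate number. The main fits did not take the replicate numbers as pairs and leave this shared deviation out. The replicate block moved the count of all genes called by dex from 359 to 968 and by time of day from 127 to 10.

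Median-ratio scaling moved the median of all genes by 0.11 for time of day, -0.12 for the NRF meal, -0.11 for the vehicle meal and 0.15 for dex + S961. Leaving the L-IRSdKO experiment out of the correlations between genes was chosen after seeing the data. Groups of 2 to 4 mice limit the precision.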
